A study of Caenorhabditis elegans with 5 samples.

Results

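The operation-site control and the Tsukuba control are a pair of ground cultures of the nematode *Caenorhabditis elegans* that both stayed at 1 G while another culture flew in the first International *C. elegans* Experiment. They were chosen by their labels and not by any measured value, and they make up 2 of the 5 arrays of the series, 1 array for each control. Both held wild-type N2 Bristol worms of mixed stages, about 100000 worms a group, kept at 20 °C for 10 days in the liquid medium CeMM, which is chemically defined and holds no bacteria. The other 3 arrays came from worms of the same strain, medium, time and temperature under space flight, clinorotation (slow turning that keeps changing the direction of gravity) and hypergravity. Neither control was given a treatment that differs from the other in the labels, so the comparison shows how far 2 untreated cultures lay apart. RNA of whole worms was measured on 1-colour Affymetrix arrays, which read each gene as the brightness of a set of short probes, called a probe set.

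Each control was 1 pool of worms on 1 array, so no difference below has a standard deviation, a test or a p-value, and the number of arrays limits the precision of every value. Site, culture and array cannot be told apart. The deposited signals had a median of 42.6 at the operation site and 38.8 at Tsukuba, against 46.7 to 57.1 on the other arrays, and all 5 arrays were quantile-scaled to 1 distribution before use. A floor was set at 24.9, the 40th percentile over the 5 scaled arrays together, and lower signals were raised to it. Of 17118 genes, 11439 were above the floor on at least 1 of the 5 arrays and are called measured. A difference is the log2 signal of the operation site minus that of Tsukuba, and a gene at the floor on 1 side is given as "at least" so many fold apart.

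A *C. elegans* hermaphrodite makes sperm in its last larval stage and then turns to oocytes, so sperm transcripts in a mixed culture mark late larvae and young adults. Each larval stage ends in a moult, in which the epidermis lays down a new cuticle of collagens and cuticlins, many of them transcribed for a few hours in one stage alone. Heat and other damage to proteins act through the transcription factor HSF-1 to raise small heat shock proteins and the HSP70 machinery from very low levels. These systems are therefore among those through which 2 cultures of one strain can differ.

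Between the controls, 478 genes (4.18% of those measured) were at least 2-fold higher at the operation site than at Tsukuba, and 416 (3.64%) were lower by as much. By any amount, 5817 genes (50.9%) read higher and 5080 (44.4%) lower. The genes at least 2-fold higher or lower together numbered 894, or 7.82%. The typical gene differed little, with a median difference of 0.0088 and a median absolute difference of 0.28 on the log2 scale, which is 1.22-fold. The middle 90% of measured genes lay between -0.89 and 0.91. At 4-fold, 72 genes were higher and 60 lower at the operation site. At 8-fold, 4 were higher and 18 lower, so the farthest differences lay mostly on the Tsukuba side. Of the 2-fold genes, 53.5% were higher at the operation site, and without any scaling of the arrays that share was 66.4%, with 541 genes higher and 274 lower.

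**Figure D1:**
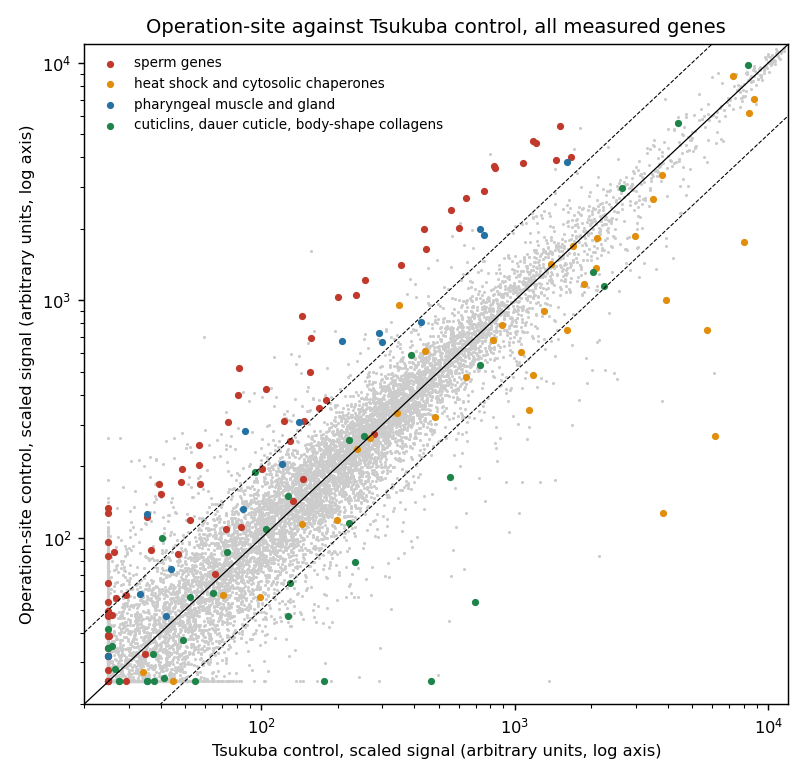
Each point is 1 of 11439 measured genes, with its scaled signal at the operation site on the vertical axis against that at Tsukuba on the horizontal axis, both on log axes. Dashed lines mark 2-fold, and colours mark 4 groups of genes. Many sperm genes, among them all 23 major sperm proteins, lie above the upper line, and a few heat shock genes lie far below the lower line.

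The 90 lists of genes by tissue, stage, stress or family held 2295 of the measured genes. They covered 266 of the 894 genes past 2-fold, and 628 were in no list. Any count past 2-fold given for a list is to be set beside the shares of all measured genes, 4.18% higher and 3.64% lower. In all, 8 lists had a median difference of at least 0.5, 3 had one of -0.5 or lower, and 60 lay between -0.25 and 0.25. The lists farthest above 0 were those of sperm and of the pharynx, and the lists farthest below were those of the dauer cuticle, inducible heat shock and seam cells.

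**Figure D2:**
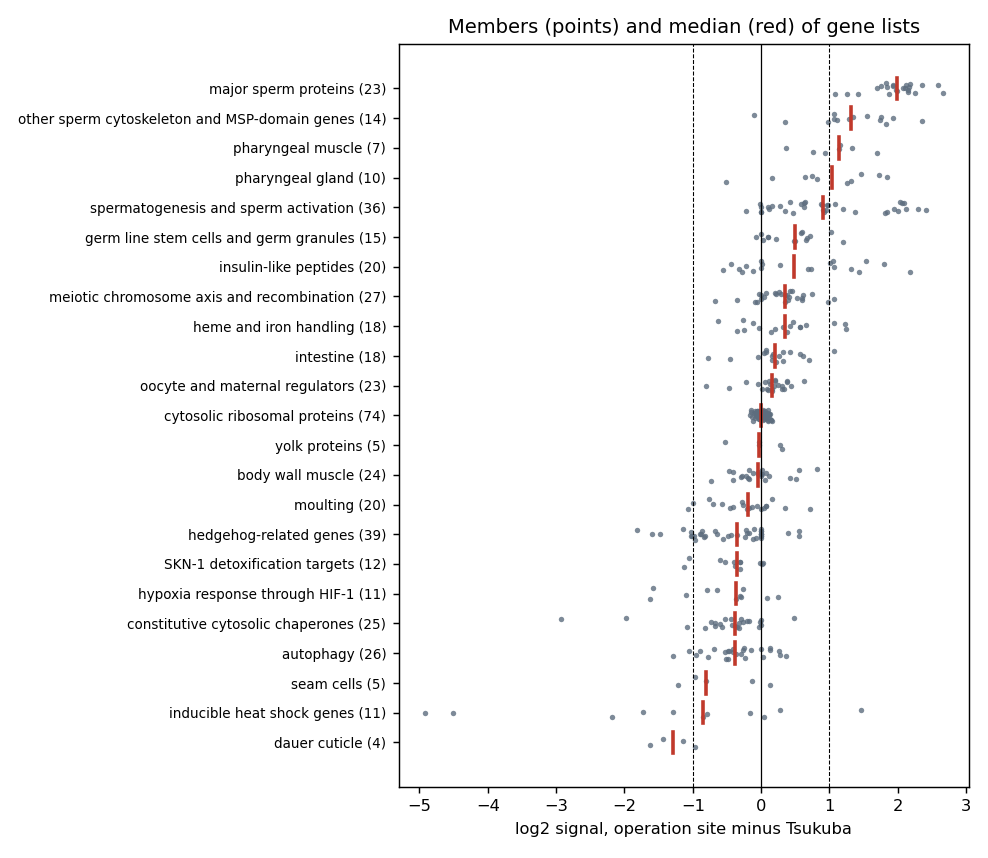
Each row is a gene list with its number of measured members, each point the log2 signal of 1 member at the operation site minus that at Tsukuba, and each red bar the median. Dashed lines mark 2-fold; all 23 major sperm proteins lie beyond it on the operation-site side, and ribosomal proteins lie close to 0.

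The major sperm proteins, which form the filaments that move the crawling sperm and also signal to oocytes, were higher at the operation site in all 23 measured members. All 23 were past 2-fold, against 4.18% of all measured genes, and their median difference was 1.99, against 0.0088 over all genes. The signal of *msp-3* was 1643 at the operation site and 448 at Tsukuba, that of *msp-74* was 517 and 81.9, and that of *msp-64* was 862 and 144. The 23 differences ran from 1.09 to 2.66, so no member was at the Tsukuba level. These genes are near-identical copies and every one of the 23 was read by probes marked as able to bind more than 1 transcript, so they are not separate measurements and the signal cannot be assigned to single copies.

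Other sperm genes were higher as well, in part on shared probes: 8 of 14 genes of the next list and 16 of 36 of the one after it were read by probes marked as able to bind others too. Of the 14 other genes of the sperm cytoskeleton and the MSP domain, 11 were at least 2-fold higher at the operation site and none at least 2-fold lower, with a median of 1.32. On probe sets without that mark, *ssp-16*, which codes for a small MSP-domain protein, read 172 at the operation site and 48.3 at Tsukuba. *ssq-2* read 87.6 and 26.1, and *ssp-35* read 127 against the floor, at least 5.1-fold higher. Of 36 measured genes of spermatogenesis and sperm activation, 13 were at least 2-fold higher and none at least 2-fold lower, with a median of 0.90. *gsp-3*, a protein phosphatase of sperm, read 307 at the operation site and 73.7 at Tsukuba, 4.16-fold higher, on a marked probe set. Without the mark, *htas-1*, a histone H2A variant of sperm, read 133 against the floor and was at least 5.35-fold higher. *spe-11*, which codes for a sperm protein that the embryo needs, read 64.4 against the floor, at least 2.58-fold higher, and *fer-1*, needed for membrane fusion when sperm activate, read 49.3 against the floor. *spe-9*, the sperm surface protein for fertilization, was at the floor on both arrays.

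In whole worms, more cells of a type and more RNA per cell cannot be told apart. Genes that mark males were near the floor: 3 of 15 on the array were measured, and *pkd-2*, *lov-1*, *cwp-1* and *try-5* were at the floor on both controls.

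The rest of the germ line differed less. Among 15 genes of germ line stem cells and germ granules, 14 read higher at the operation site, against 50.9% of all genes, and 2 of them were past 2-fold, with a list median of 0.50. *glh-1*, a Vasa-like helicase of germ granules, read 1306 at the operation site and 645 at Tsukuba. *pgl-2*, a germ granule protein, read 124 and 54.2, and *pgl-1* read 869 and 575. Of 27 genes of the meiotic chromosome axis and recombination, 20 read higher by any amount, against 50.9% of all genes, and the median was 0.35. The 1 past 2-fold, a share near the 4.18% of all genes, was *cosa-1*, which marks crossover sites and read 52.2 against the floor, at least 2.09-fold higher. *zim-3*, which helps chromosomes pair, read 87.7 and 44.4. Among 38 argonaute and RNA interference genes the median was 0.31 and the 1 gene past 2-fold was *alg-4*, an argonaute of spermatogenesis, at 96.4 against the floor. Its relative *alg-3* read 46.8 against the floor. Among 32 genes of DNA repair, 25 read higher by any amount, against 50.9% of all genes, with a median of 0.33, and *rad-54.L2* was the 1 past 2-fold, lower at 319.5 against 687.

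Genes of oocytes, eggs and yolk showed no 2-fold difference. None of 23 oocyte and maternal regulators was past 2-fold, and their median was 0.16. By any amount, 19 of the 23 read higher at the operation site, against 50.9% of all genes, and 4 lower. *gld-1*, which holds maternal messages untranslated, read 1046 at the operation site and 680.1 at Tsukuba, while *oma-1*, needed for oocyte maturation, read 676 and 605. None of 13 eggshell genes was past 2-fold, with a median of 0.16 and *chs-1*, the eggshell chitin synthase, at 503 and 454. Of these 13, 10 read higher by any amount and 3 lower. Of the 5 yolk protein genes, *vit-2* read 2784 and 2290.0 and *vit-5* read 1503 and 1541, and the median was -0.04. Oocyte and eggshell genes were thus well above the floor on both arrays, as were larval cuticle genes such as *dpy-7* (115 and 223), so both controls held transcripts of adults and of larvae, the mixed stages that the labels give.

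**Figure D3:**
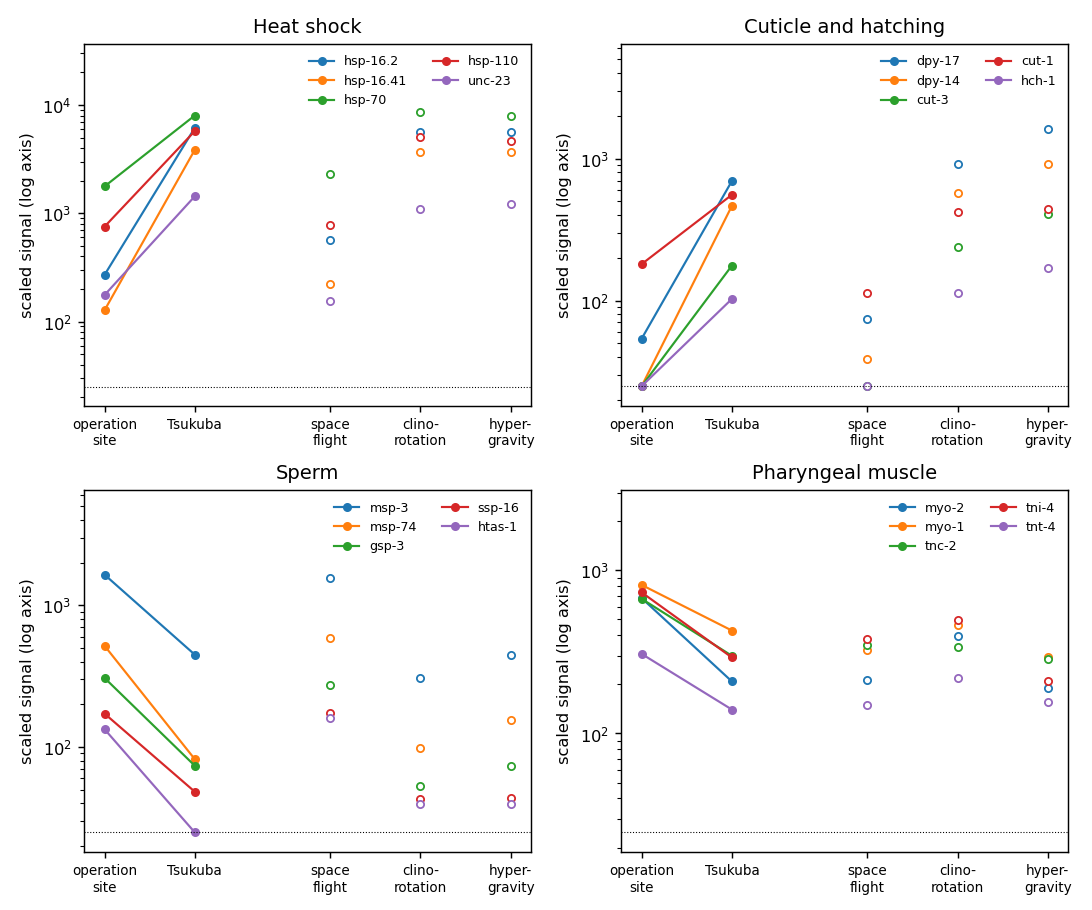
Scaled signal on a log axis of 20 genes on each array, with a line joining the operation-site and Tsukuba controls and open points for the other 3 arrays; the dotted line is the floor. Heat shock and cuticle genes slope up toward Tsukuba and sperm and pharyngeal muscle genes slope down. Space flight lies mostly on the operation-site side for the first 3 groups and not for pharyngeal muscle. Even so, *hsp-16.2* read at least 2-fold higher in space flight than at the operation site.

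Inducible heat shock genes held the widest differences of any list, all but 1 of those past 2-fold being lower at the operation site. Of 18 names, 11 had a probe set of their own, and 5 of these were at least 2-fold lower and 1 higher by as much, with a median of -0.85. *hsp-16.41*, a small heat shock protein, read 127 at the operation site and 3850.3 at Tsukuba, 30.3-fold lower. *hsp-16.2*, from the same family, read 269.5 and 6148, 22.8-fold lower. *hsp-70*, the inducible HSP70, read 1769.7 and 8000.3, 4.52-fold lower. The small heat shock genes *hsp-43* and *hsp-17* were 3.3-fold and 2.43-fold lower. The exception was *hsp-12.2*, of the same wider family, which read 955 at the operation site and 348 at Tsukuba.

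The constitutive chaperones of the cytosol went the same way by smaller steps. Of 25 measured, 23 read lower at the operation site by any amount, against 44.4% of all genes. In 18 of them both the operation site and space flight lay below the 3 other arrays, against 18.5%. Their median was -0.38, and 3 were past 2-fold. *hsp-110*, a partner that recharges HSP70, read 752 at the operation site and 5739.8 at Tsukuba, 7.63-fold lower, and its other probe set gave a log2 difference of -1.58. *dnj-13*, a DnaJ partner of HSP70, read 1007 and 3950.3, and its other probe set gave -2.52. *hsp-1*, the constitutive HSP70, read 6162 and 8379.6, and *hsp-90* read 7015 and 8772. *unc-23*, a BAG-domain co-chaperone required for muscle attachment, was 8.16-fold lower at 176 against 1433, and its other probe set gave -2.64.

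Other stress systems held smaller single differences than the heat shock genes. In the endoplasmic reticulum 2 of 19 genes were lower past 2-fold at the operation site, against 3.64% of all genes. They were *hsp-4*, the inducible BiP, at 1098 against 2583, and *pek-1*, a sensor kinase, at 256 against 645. The median of that list was 0.00, and *hsp-3*, the other BiP, read 1482 and 1688. The mitochondrial chaperones *hsp-6* (1837 against 2474) and *hsp-60* (817 against 969.9) were within 2-fold, and the 1 of 11 genes of the mitochondrial list past it was the protease gene *lonp-1*, higher at 240.5 against 118, with the sign turned on its unmarked probe set (-0.16). In the hypoxia list 9 of 11 genes read lower by any amount, against 44.4% of all genes, 3 of them past 2-fold and none higher past it, with a median of -0.38. They were *cysl-2*, a cysteine synthase-like gene, at 153 against 472, its relative *cysl-1* at 149 against 318, and *rhy-1*, a regulator of HIF-1, at 48.00 against 144. In the SKN-1 detoxification list 10 of 12 genes read lower by any amount, against 44.4% of all genes, with a median of -0.35. Lower past 2-fold were 2 of the 12, against 3.64% of all genes, *gst-10* (152 against 317) and *nit-1* (68.5 against 149.6). *gst-4*, the usual reporter of that pathway, read 332 against 328. In the autophagy list 20 of 26 genes read lower by any amount, against 44.4% of all genes, with a median of -0.39, and 2 were past 2-fold, against 3.64%. These were *epg-2*, a cargo adaptor of autophagy, at 91.1 against 222, and *epg-9* at 111 against 229, and *bec-1*, the worm Beclin, lay just inside at 324 against 629. The metallothioneins *mtl-1* (5933 against 4407) and *mtl-2* (3280.2 against 2901) were within 2-fold, as was *sod-3* (835 against 662).

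Most osmotic genes read highest at the operation site, as did most pharyngeal muscle and neuropeptide genes described below. *gpdh-1*, which makes glycerol, read 605 at the operation site and 359.8 at Tsukuba, and 198 to 263 on the other arrays. *hmit-1.1*, an inositol transporter, read 249 and 106, and 96.04 to 127 on the others. In all, 6 of 9 measured genes of that list read highest at the operation site of the 5 arrays, as did 2521 of the 11439 measured genes. Against Tsukuba alone 7 of 9 read higher, against 50.9% of all measured genes, and the list median was 0.16.

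Genes of immunity and defence were mixed. Of 19 measured genes of the p38 pathway and its targets, 5 were at least 2-fold higher at the operation site and 1 lower. The shares over all genes were 4.18% and 3.64%, and the list median was 0.42. C17H12.8, an infection-response gene, read 215 at the operation site and 38.4 at Tsukuba. *lys-2*, a lysozyme, read 1867 and 565, and the C-type lectin *clec-67* read 151 and 37.98. The 1 that was lower was *pmk-1*, the p38 kinase itself, at 26.4 against 71.4, close to the floor. Of 52 antimicrobial effectors, 6 were at least 2-fold higher (11.5%, against 4.18% of all genes) and 4 lower (7.69%, against 3.64%). *fipr-2* read 1474 and 492, whereas *fipr-25* of the same family was at the floor against 291 at Tsukuba, at least 11.7-fold lower. *lys-3* read 70.1 and 203, the reverse of *lys-2*. C-type lectins had 16 of 78 measured members higher past 2-fold (20.5%, against 4.18% of all genes) and 5 lower (6.41%, against 3.64%). *clec-47* read 2109 and 606, and *clec-266* read 26.5 and 498, 18.8-fold lower.

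Cuticle genes differed in both directions, and few genes of the dauer and adult cuticle were measured. The 4 measured genes of the dauer cuticle all read lower at the operation site and 3 of them were past 2-fold, the median being -1.29. The cuticlin *cut-1*, a component of the dauer cuticle, read 181 at the operation site and 556 at Tsukuba. *cut-5* read 46.9 and 127, *cut-6* was at the floor against 54.9, and *col-2*, a collagen high in dauer larvae, read 1148 and 2256. The adult cuticle collagen *col-19* read 332 and 123, in the opposite direction. The other adult collagens *bli-1* (34.4) and *bli-2* (41.3) were above the floor at the operation site and at the floor at Tsukuba, at least 1.38-fold and 1.66-fold higher.

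Among 18 collagens that set body shape, 3 were lower past 2-fold, against 3.64% of all genes, and none higher. *dpy-14* was at the floor at the operation site and read 465 at Tsukuba, at least 18.7-fold lower. *dpy-17* read 53.9 and 696, 12.9-fold lower, and *dpy-3* read 79.6 and 234. By any amount, 7 of the 18 read lower, among them *dpy-2* (64.9 against 129.5) and *dpy-7*, and 11 higher, such as *sqt-3* at 5568 against 4394. The list median was 0.13 and ran from -0.61 to 0.17 over the processing settings, so it has no settled direction. The 102 measured collagens named col were divided, with 16 higher (15.7%, against 4.18% of all genes) and 13 lower (12.7%, against 3.64%) past 2-fold. Their median was -0.02. *col-63* read 264 against the floor, at least 10.6-fold higher, *col-129* read 412 and 84.8, and *col-44* read 56.2 and 241. *col-20* stood apart on 1 array, with 576 at the operation site, 112 at Tsukuba and 151 to 247 on the others.

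Of 17 measured cuticlins, 4 were lower and 2 higher past 2-fold at the operation site, against 3.64% and 4.18% of all genes. *cut-3* was at the floor against 176 at Tsukuba, at least 7.07-fold lower, while *cutl-26* (100.3 against 40.4) and *cutl-20* (189 against 94.1) were higher. Hedgehog-related genes code for secreted proteins of the epidermis that cycle with the moults. Of 39 measured, 7 were lower past 2-fold, against 3.64% of all genes, and none higher, with a median of -0.35. *grl-23* read 240.3 at the operation site and 843 at Tsukuba, and *wrt-2* read 58.4 and 177. Of 20 moulting genes, 14 read lower by any amount, against 44.4% of all genes, and the 1 past 2-fold was *nhr-25*, a nuclear receptor of the moult, at 87.2 against 184, a share near the 3.64% of all genes. *noah-2*, a protein of the apical matrix, read 164 and 326, just inside 2-fold, while *noah-1* read 543 and 566. Of 10 measured timing genes of the larva 6 read lower and 4 higher, with a median of -0.07. *lin-28*, which holds cells in early larval fates, read 203 and 408, and *lin-29*, which drives the adult switch, read 84.99 and 54.7. *hch-1*, the hatching protease, was at the floor against 103, at least 4.12-fold lower. Of the seam cells, epidermal cells that divide at each larval stage, *ceh-16* was at the floor against 58.2, and the median of 5 measured genes was -0.80. By any amount 4 of the 5 read lower and 1 higher, and *ceh-16* was the 1 past 2-fold. Over the processing settings the seam median ran from -0.89 to -0.26. Of 13 measured genes of the epidermis list 8 read higher and 5 lower, with a median of 0.23.

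In the pharynx, the pump with which worms feed, all 7 muscle genes read higher at the operation site than at Tsukuba, against 50.9% of all genes, and also higher than on the 3 other arrays, against 2521 of 11439 genes that read highest there. In that list 4 genes were past 2-fold, and the median was 1.13. The pharyngeal myosin *myo-2* read 675 at the operation site, 208 at Tsukuba, 212 in space flight, 397 in clinorotation and 189 in hypergravity. Its partner *myo-1* read 814 and 427 on the controls, and 296 to 461 on the other 3 arrays. The pharyngeal troponins *tnc-2* (669 against 299), *tni-4* (732 against 292) and *tnt-4* (307 against 140.1) completed the group past 2-fold. In space flight these genes were not near the operation-site level, and their median of space flight minus clinorotation was -0.48.

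The gland cells of the pharynx, which secrete into its lumen, were also higher: 5 of 10 genes were past 2-fold, none lower, and the median was 1.03. *phat-3* read 127 and 35.3, *phat-7* read 2005 and 727, and *phat-6* read 283 at the operation site, 85.98 at Tsukuba and at most 138 elsewhere. Of the gland genes, 6 of 10 read highest at the operation site of the 5 arrays, against all 7 muscle genes and 2521 of 11439 measured genes. Space flight differed between the 2 lists. In 6 of 10 gland genes both the operation site and space flight lay above the 3 other arrays, against 23.7% of all genes. The gland median of space flight minus clinorotation was 0.51. Of 9 measured abu genes, whose products line the pharynx, 3 were past 2-fold, with *abu-10* at 71.2 against 30.1. *abu-13* ran the other way at 85.6 against 165.

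Body wall muscle showed no such difference, with none of 24 genes past 2-fold and a median of -0.05. *unc-54*, its major myosin, read 2208 at the operation site and 2044 at Tsukuba, *unc-15*, the paramyosin, 2730.0 and 2706, and *myo-3* read 306 and 333. Of 18 intestinal genes the 1 past 2-fold was *elt-2*, the GATA factor of the gut, at 219 against 105, and its other probe set differed by -0.17, so the difference rests on 1 probe set. *ges-1*, the gut esterase, read 409 and 277, and *ifb-2*, an intermediate filament of the gut, read 1138 and 1947. None of 17 pan-neuronal genes was past 2-fold. *rab-3*, a synaptic vesicle GTPase, read 323 and 204, *snb-1*, synaptobrevin, read 1340.1 and 1585, and *rgef-1* was at the floor on both. Of 17 genes of glutamate signalling, the receptor genes *glc-4* (106 against 51.2) and *nmr-2* (58.2 against 28.4) were past 2-fold.

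Of 20 measured insulin-like peptides, 8 were at least 2-fold higher at the operation site, against 4.18% of all genes, and none lower. *ins-30* read 597 and 131, *ins-5* read 181 and 51.96, and *daf-28*, which promotes reproductive growth over dauer, read 72.7 and 25.2. *ins-6*, of the same action, read 66.95 against the floor, and *ins-7* read 51.6 with the floor on all 4 other arrays. Most of these signals were low, and the list median of 0.48 became -0.12 when the floor was set at the 60th percentile. *daf-9*, a cytochrome P450 that makes the steroid hormone against dauer, read 115 at the operation site and 35.1 at Tsukuba, while *daf-7*, the TGF-beta ligand, read 144 and 135. FMRFamide-like neuropeptides had no gene past 2-fold among 23, with a median of 0.20, and 13 read highest at the operation site of the 5 arrays. *flp-21* read 371 and 187, and *flp-9* read 3425 and 1755. Of 53 other neuropeptide genes, 39 read higher at the operation site than at Tsukuba, against 50.9% of all genes, and 32 read highest there of the 5 arrays, against 2521 of 11439 genes, but only *nlp-80* was at least 2-fold higher (1899.9 against 927). *nlp-39* was the 1 lower past 2-fold, at 54.9 at the operation site, 198.5 at Tsukuba and 177 to 524 elsewhere.

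Genes of feeding and metabolism differed in both directions. Of 18 genes of heme and iron handling 3 were higher past 2-fold, against 4.18% of all genes, and none lower, with a median of 0.35. The 3 included *hrg-4*, a heme importer of the gut, at 187 against 79.97 and *hrg-11.2* at 716 against 341. The iron store *ftn-1* read 3860.3 and 3083. In the fasting list *lipl-2*, a lipase, was the 1 past 2-fold, at 38.03 against 114, and *acs-2*, an acyl-CoA synthetase that fasting raises, read 1632 and 2769. *fat-6*, the stearoyl desaturase, read 2343 and 4524, just inside 2-fold, *fat-7* was at the floor on both, and *elo-4*, an elongase, read 124 and 302. Of 31 glutathione S-transferases 5 were lower past 2-fold, against 3.64% of all genes, and none higher, with *gst-36* at 447 against 1410.0. *gyg-1*, glycogenin, the primer of glycogen, was 8.1-fold lower at 128 against 1036.

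Most housekeeping groups lay close together. None of 74 cytosolic ribosomal proteins was past 2-fold, and their differences ran from -0.17 to 0.15 around a median of 0.0016, at high signals. None of 33 proteasome subunits was past 2-fold, although *rpn-3* read 1435 at the operation site and 2741 at Tsukuba. None of 57 mitochondrial ribosomal proteins, 22 genes of the tricarboxylic acid cycle or 16 of glycolysis was past 2-fold. Of 31 measured histones, 22 read lower by any amount, against 44.4% of all genes, and 8 higher, with a median of -0.27. Past 2-fold, 2 were higher, *htas-1* and the H3 variant *his-70* (67.1 against the floor), and 1 lower, the linker histone *hil-7* at 279 against 642.

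Some of the farthest genes belong to no such system. Lowest at the operation site among genes above the floor on both arrays were *hsp-16.41*, the nuclear receptor gene *nhr-17* (83.8 against 2143, 25.6-fold), *hsp-16.2* and *clec-266*. R11A5.3 was at the floor against 1362, at least 54.7-fold lower, the widest gap of all. R107.5 read 495 and 6092 and Y57G11B.5 read 44.9 and 551. *nurf-1*, a subunit of a chromatin remodeller, read 376 and 3790.5, but its other probe set differed by -0.33. Highest among genes above the floor on both arrays were *mbug-1* (700.3 against 59.5, 11.8-fold), *scl-24* (1613 against 157, 10.3-fold) and F35E8.6 (263 against 27.7, 9.53-fold). *scl-24* belongs to the SCP-like secreted proteins, of which *scl-13* ran the other way at 451 against 1918.

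A gene read by more than 1 probe set gives a check within the arrays. Among the genes past 2-fold, 141 further probe sets were above the floor, and 127 of them differed in the same direction, 62 by at least 2-fold. The other 14 differed in the opposite direction, none of them by 2-fold. Probe sets marked as able to bind more than 1 transcript read 32.7% of the genes past 2-fold and 34.02% of all measured genes. Genes of low signal passed 2-fold more often: with genes above the floor on both arrays put into 4 equal classes by mean signal, in the lowest class 5.46% were higher and 4.11% lower, and in the highest class 2.65% and 3.19%.

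The other 3 arrays hold a difference that shares no array with the controls, space flight minus clinorotation. Of the 478 genes higher at the operation site, 448 read higher in space flight than in clinorotation, 285 of them by at least 2-fold, against 4.29% of all measured genes that passed 2-fold in that direction. Of the 416 lower, 404 read lower in space flight than in clinorotation, 231 of them by at least 2-fold, against 4.75%. By any amount, 51.9% of all measured genes read higher in space flight than in clinorotation. None of the 478 was 2-fold the other way. Across all measured genes, which are not independent replicates, Pearson's r between both differences was 0.73 and Spearman's rho 0.62. With hypergravity in place of clinorotation r was 0.71 and rho 0.60, and these differences share the space flight array. All 5 arrays were scaled together.

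**Figure D4:**
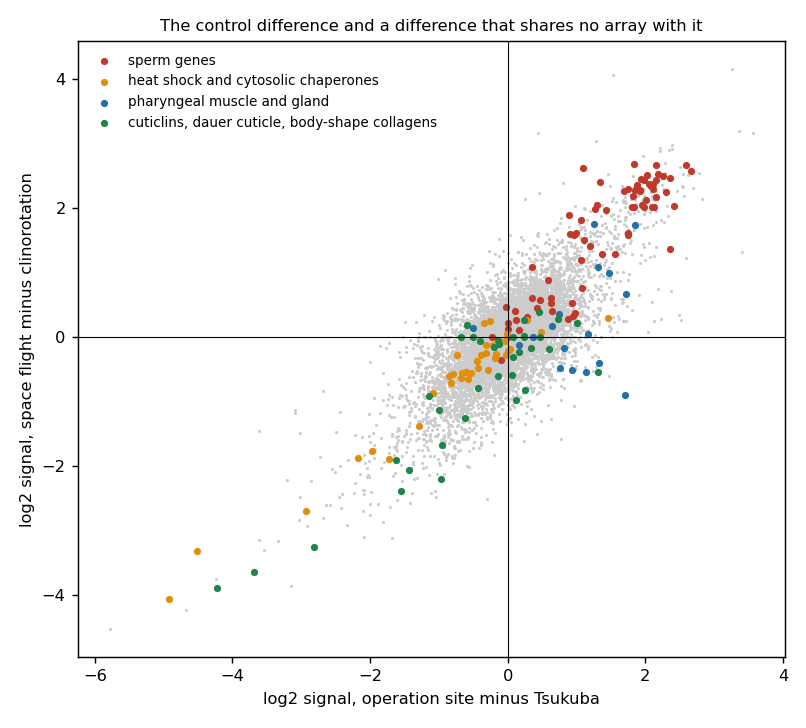
Each point is 1 measured gene, with the log2 signal of space flight minus clinorotation on the vertical axis against that of the operation site minus Tsukuba on the horizontal axis. Most sperm genes lie at the upper right. Many heat shock genes and some cuticle genes lie at the lower left. Others of both groups lie to the right of 0, among them 11 of 18 body-shape collagens. Several pharyngeal genes lie to the right of 0 and at or below 0 on the vertical axis.

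The space flight array therefore read on the operation-site side for most of these genes. Of the genes at least 2-fold higher, 436 of 478 had both the operation site and space flight above the 3 other arrays, against 23.7% of all measured genes. Of those at least 2-fold lower, 384 of 416 had both below, against 18.5%. Choosing these genes by 2-fold already fixed the order of the 2 controls, which is not so for all measured genes. Part of each excess was therefore set by the choice. *hsp-16.2* read 563 in space flight, 5608 in clinorotation and 5589 in hypergravity, and *msp-74* read 585, 97.9 and 155. Few genes set either control alone apart from all 4 other arrays by 2-fold. The operation site was so placed above for 22 genes (0.192%) and below for 17 (0.149%), and Tsukuba above for 5 (0.0437%) and below for 3 (0.0262%). Among the first were *col-20*, *gegf-1*, *pgp-14*, *phat-6* and *ins-7*, and among the second *nlp-39*, *ttr-50* and *hsp-16.2*. Tsukuba alone was above for R11A5.3 (1362, against 574 at most elsewhere) and W03F9.1 (294, against at most 109), and below for *scl-19* (195, against at least 559).

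By chromosome, genes past 2-fold were unevenly placed. On chromosome IV 121 of 1878 measured genes (6.44%) were higher at the operation site and 56 (2.98%) lower, and this chromosome also holds 27 measured genes of the sperm lists, the most of any. On chromosome X 41 of 1653 (2.48%) were higher and 86 (5.203%) lower, and none of its measured genes is in a sperm list. On chromosome III 2.67% were higher and 2.40% lower. Neighbouring measured genes past 2-fold in one direction formed 14 runs of 3 or more, counted along the RefSeq gene order. Both runs of 4 were chosen for mention after they were seen: *acdh-8*, *msp-63*, *msp-142* and K05F1.9 on chromosome II were higher, and Y62H9A.3, Y62H9A.4, *stha-3* and *ule-5* on chromosome X lower. Y62H9A.3 read 74.3 at the operation site and 630.5 at Tsukuba, and Y62H9A.4 read 68.9 and 559. A further 2 runs, also picked after they were seen, held genes of one family, *ins-24*, *ins-30* and *ins-26* on chromosome I, higher, and *skr-13*, *skr-9* and *skr-8* on chromosome IV, lower.

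**Figure D5:**
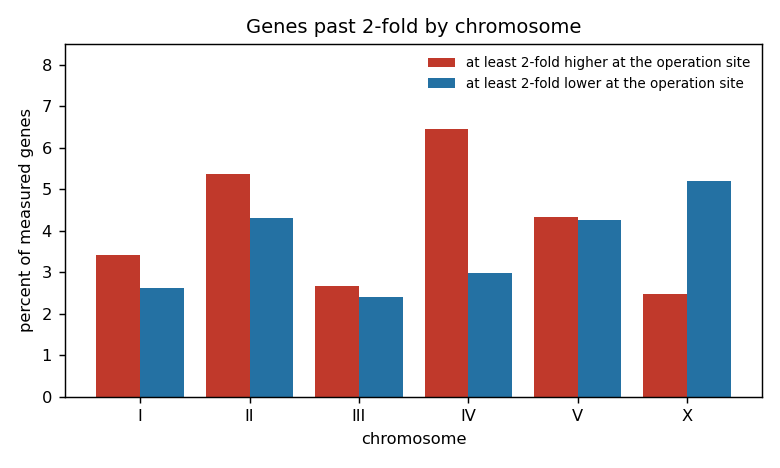
Bars give the percentage of measured genes on each chromosome that were at least 2-fold higher (red) or lower (blue) at the operation site than at Tsukuba. Chromosome IV has the tallest bar for higher genes, 6.44%, and chromosome X the tallest for lower genes, 5.203%.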

How the data were processed

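The authors deposited 1 intensity per probe set and array, without detection calls; that it is linear was judged from the values, and the software behind it is not stated in the labels. Per the labels, worms were frozen, RNA was taken up with ISOGEN and 15 µg of it was turned into biotinylated cRNA. GEO's platform annotation named the probe sets: of 22548, 20766 carried 1 symbol, 887 several and 895 none, and the 1782 without a single symbol were left out. RefSeq held 17072 of the 17118 symbols by Entrez identifier. Where a gene had several probe sets (2981 genes), that of the highest mean signal over the 5 arrays stood for it.

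Quantile scaling on log2 values, the floor, differences and counts were computed with Python 3.11.15, numpy 2.4.6 and pandas 2.3.3, and tested on simulated data. No test was possible with 1 array a group. Whether any sample came from separate cultures is not stated in the labels. Gene lists, members and rules were chosen with earlier results of these data known. Genes were named by a rule: per direction the 15 largest differences above the floor and 8 at the floor on the other array, and of each list its index genes and up to 6 with the largest difference; the neighbour runs fall outside it. Alternatives changed the scaling, the floor, the probe sets, the filter and the fold. No sequence was used here.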

Additional observations from a re-analysis of the deposited data

How the results depend on the processing

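Against 478 genes at least 2-fold higher and 416 lower, the arrays as deposited gave 541 and 274, a floor at the 20th percentile 1112 and 953, one at the 60th 195 and 206, probe sets not marked as binding several transcripts 311 and 329, and a 3-fold limit 178 and 114. The cause of these moves was not tested, except that the floors and the probe set choice change how many genes are measured (15696, 7655 and 8204, against 11439). Median scaling (450 and 404), quantile scaling of the controls alone (445 and 375), the mean of all probe sets (434 and 400) and genes above the floor on both controls (361 and 339) stayed within 1.5 times. Of the list medians of at least 0.3 under an alternative, 197 kept their sign and stayed within 1.5-fold of the main value. The exceptions were adult cuticle collagens (1.44 with the lower floor), insulin-like peptides (-0.12 with the higher floor) and SCP-like proteins (-0.027 with genes above the floor on both controls). That limit is wide beside many of these medians. Within it p38 immunity ran from 0.08 to 0.78, seam cells from -0.89 to -0.26 and hypoxia from -0.51 to -0.20. Among the other list medians, that of body-shape collagens ran from -0.61 to 0.17 and that of vulva and uterus from -0.18 to 0.76. Of the named genes under each alternative, 4002 values stayed near the main one, 238 moved and 1 changed sign, *lonp-1*, which read -0.16 on its unmarked probe set.

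No paired analysis was possible because each group has 1 array. The promoter motif count was not run, because no promoter sequences were used here. Signals at the floor have no order, and a difference with 1 control at the floor is a lower bound.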
